A study of Homo sapiens with 6 samples.

Results

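The collagen gene family was examined in HepG2, a line of human hepatocellular carcinoma cells, after FTO siRNA and after control siRNA. Members were the protein-coding genes whose GENCODE symbol has the form COL, a number, A and a number, which gave 44 genes among the 60483 gene identifiers of each library. They comprise 11 fibrillar collagens, 8 collagens of basement membranes, among them types XV and XVIII, and 25 of other classes. RNA sequencing of total RNA gave 6 libraries, 3 from HepG2 cells transfected with FTO siRNA and 3 from HepG2 cells transfected with control siRNA, all at passage 16 to 19 and grown in RPMI-1640 with fetal bovine serum. HepG2 is 1 line, and the labels do not state the sequence, dose or time of the siRNAs. Nothing states that the libraries came from separate cultures, so p-values measure the spread between these libraries, which may be technical.

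Collagens are secreted proteins in which 3 chains wind into a triple helix. Fibrillar collagens assemble into the tensile fibrils of connective tissue, type IV collagen forms the network of basement membranes, and others link fibrils, anchor epithelia or span the cell membrane. In the liver, stellate cells and fibroblasts are the known main source of fibrillar collagen in scarring. FTO is a demethylase that acts on methylated adenosines in RNA.

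FTO itself (ENSG00000140718.17) had 11.2, 14.5 and 5.21 CPM (counts relative to the library total, TMM-scaled) in the FTO siRNA libraries, against 40.8, 37.96 and 38.8 CPM in the control siRNA libraries. The groups did not overlap, and FTO was lower after FTO siRNA by a log2 fold change of -1.93 ± 0.32 (SE, edgeR quasi-likelihood test, adjusted p = 0.00932). Total counts were 16407912 to 18390953 in FTO siRNA libraries and 15713279 to 16739978 in control siRNA libraries, so that a floor of 3 counts lay at 0.163 to 0.191 CPM, counting error only. FTO siRNA 3 stood apart from its group: on the second principal component, with 28.9% of the variance, it lay at 45.9, against -37.7 for FTO siRNA 1 and -21.1 for FTO siRNA 2. It was also the highest of the 6 libraries for 12 of the 21 tested collagens.

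Of the 44 collagens, 21 passed the filter on low counts, and 7 of these (33.3%) were higher after FTO siRNA at an adjusted p under 0.05, none lower. Over all 15025 genes tested, 7.53% were called higher, 3.83% lower and 11.4% in either direction. The 7 were the fibrillar COL1A1, COL1A2 and COL11A2, and, of the other classes, COL6A2, COL7A1, COL9A2 and COL17A1. The median log2 fold change was 0.74 over the 21 collagens and 0.04 over all genes tested. COL6A2, COL9A3 and COL17A1 passed the filter only through the FTO siRNA libraries. That route favours members higher after FTO siRNA: of 806 genes tested through it, 360 were called higher. The count and the median are therefore descriptions and no more. The number called higher was 9 without FTO siRNA 3, beside 15.9% of all genes tested. Called lower there were 4, COL14A1 among them, beside 14.1%. The number called higher was 1 without control siRNA 1, 1 without control siRNA 2 and 2 without control siRNA 3. In these fits 1.51%, 1.84% and 3.23% of all genes were called higher. COL7A1 was called higher without each of the 6 libraries in turn.

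**Figure D1:**
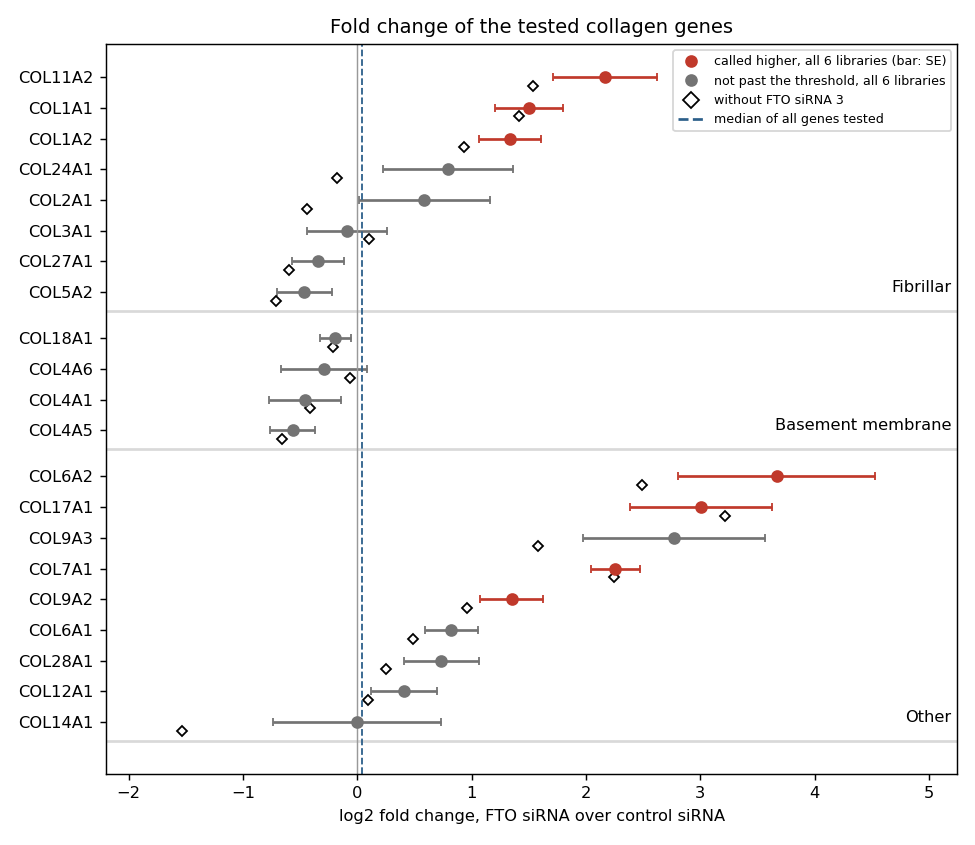
Log2 fold change of each tested collagen, FTO siRNA over control siRNA, with its standard error, by class. Diamonds give the value without FTO siRNA 3 and the dashed line the median of all genes tested. The 7 called members lie above 1 and the 4 tested members of basement membranes lie below 0, none of these 4 past the threshold.

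Per length of transcript, the collagen message of these cells was mostly COL5A2. Summed over all 44 members, the level was 169, 213 and 286 CPM per kilobase in FTO siRNA 1 to 3, against 232, 252 and 241 in control siRNA 1 to 3, and the groups overlapped. COL5A2 supplied 52.4%, 61.3% and 57.3% of it after FTO siRNA, against 71.98%, 74.3% and 72.3% after control siRNA. Without COL5A2, the sum was 80.4, 82.2 and 122 CPM per kilobase after FTO siRNA, against 65.1, 64.7 and 66.7 after control siRNA. The groups then did not overlap, with the FTO siRNA libraries above. The classes apart from fibrils and basement membranes summed to 40.995, 38.4 and 66.4 CPM per kilobase after FTO siRNA, against 22.3, 22.98 and 24.6 after control siRNA. Members of basement membranes ran the other way, at 17.8, 22.6 and 20.1 CPM per kilobase after FTO siRNA, against 23.0, 24.0 and 26.7 after control siRNA. These sums were not tested. In bulk RNA, fewer cells of a type and less RNA per cell cannot be told apart.

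**Figure D2:**
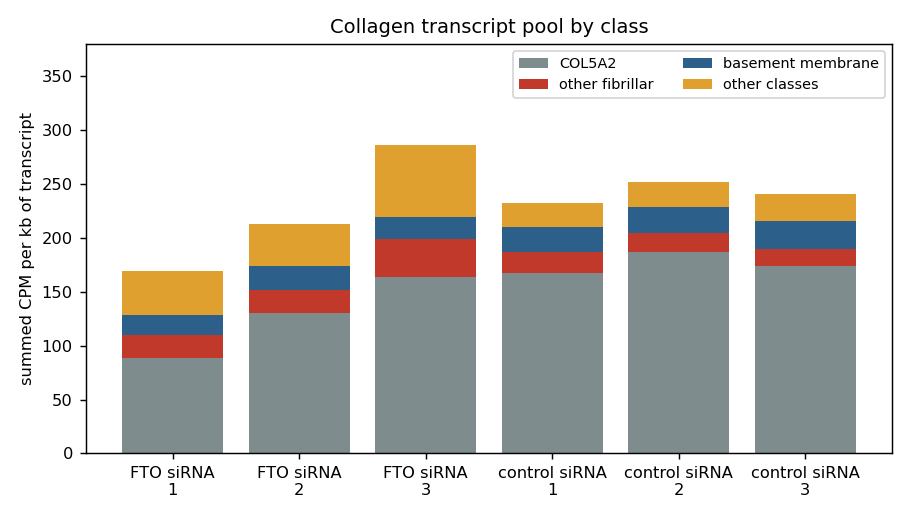
Summed collagen level in CPM per kilobase of the longest transcript in each library, split by class with COL5A2 apart, FTO siRNA libraries left of control siRNA libraries. The COL5A2 share is 52.4% to 61.3% after FTO siRNA and 71.98% to 74.3% after control siRNA.

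Among fibrillar collagens, the type I chains, the main protein of tendon, bone and scar, were higher after FTO siRNA. COL1A1, the alpha-1 chain, had 42.6, 38.8 and 45.3 CPM after FTO siRNA, against 11.8, 9.87 and 23.1 CPM after control siRNA. Each FTO siRNA library exceeded each control siRNA library, and control siRNA 3 was the highest of its group. The means were 42.2 ± 3.28 CPM after FTO siRNA and 14.9 ± 7.11 CPM after control siRNA (SD, n = 3 each), a 2.83-fold difference (log2 1.50 ± 0.30, edgeR adjusted p = 0.0168). COL1A2, the alpha-2 chain, had 39.5, 38.1 and 73.3 CPM after FTO siRNA, against 20.5, 22.5 and 16.9 CPM after control siRNA. The groups did not overlap, and FTO siRNA 3 was well above its group. The means were 50.3 ± 19.9 CPM after FTO siRNA and 19.99 ± 2.86 CPM after control siRNA (SD, n = 3 each), a 2.52-fold difference (log2 1.33 ± 0.27, edgeR adjusted p = 0.0183). Without FTO siRNA 3, the log2 fold change of COL1A2 was 0.93 and that of COL1A1 1.42. The COL1A1 call was lost without control siRNA 1 (edgeR adjusted p = 0.0922) or control siRNA 2 (0.0694), and the COL1A2 call without control siRNA 1 (0.0905), 2 (0.0666) or 3 (0.0802).

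Type I collagen is built from both chains in a fixed proportion. The ratio of COL1A1 to COL1A2 per length was 0.961, 0.907 and 0.551 after FTO siRNA, against 0.514, 0.390 and 1.22 after control siRNA. The FTO siRNA ratios all lay within the range of the control siRNA ratios, and each group had 1 library on the other side of its own pair, FTO siRNA 3 low and control siRNA 3 high.

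COL11A2, a chain of the minor cartilage fibril collagen XI, was much rarer. It had 2.73, 2.53 and 6.54 CPM after FTO siRNA, against 0.887, 0.792 and 0.966 CPM after control siRNA. The groups did not overlap, and FTO siRNA 3 was again the highest. The means were 3.93 ± 2.26 CPM after FTO siRNA and 0.882 ± 0.0871 CPM after control siRNA (SD, n = 3 each), 4.49-fold apart (log2 2.17 ± 0.45, edgeR adjusted p = 0.0203). The log2 fold change was 1.54 without FTO siRNA 3, and the call was lost without control siRNA 1 (edgeR adjusted p = 0.0982), 2 (0.0917) or 3 (0.0704).

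COL5A2, the alpha-2 chain of collagen V, which sets the diameter of type I fibrils, was the most abundant collagen. It had 628, 924 and 1159.6 CPM after FTO siRNA, against 1185, 1326 and 1231 CPM after control siRNA. Each FTO siRNA library lay below each control siRNA library, FTO siRNA 3 only just. The means were 904 ± 267 CPM after FTO siRNA and 1247 ± 71.8 CPM after control siRNA (SD, n = 3 each), and the difference did not pass the threshold (log2 -0.46 ± 0.24, edgeR adjusted p = 0.249). Without FTO siRNA 3 it was called lower, at log2 -0.71 and adjusted p = 0.0138. Its partner chain COL5A1 had 11, 4 and 6 counts after FTO siRNA, against 9, 8 and 19 counts after control siRNA, too few to test.

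COL27A1, a fibrillar chain of developing cartilage, had 47.5, 53.2 and 76.2 CPM after FTO siRNA, against 90.5, 76.4 and 57.5 CPM after control siRNA. The groups overlapped and the difference did not pass the threshold (log2 -0.34 ± 0.23, edgeR adjusted p = 0.367). Without FTO siRNA 3 it was called lower, at log2 -0.60 and adjusted p = 0.0326. COL2A1 of cartilage had 4.63 to 22.4 CPM after FTO siRNA, against 4.23 to 10.5 CPM after control siRNA (edgeR adjusted p = 0.546). COL3A1, the partner of type I in soft tissue, had 1.79 to 3.15 CPM after FTO siRNA, against 1.99 to 3.96 CPM after control siRNA (edgeR adjusted p = 0.894). COL24A1 had 0.868 to 4.85 CPM after FTO siRNA, against 1.15 to 1.77 CPM after control siRNA (edgeR adjusted p = 0.403). Over the 8 tested fibrillar members, 3 were called higher and 5 did not pass, beside 7.53% of all genes tested called higher. Their median log2 fold change was 0.69, and it was -0.18 without FTO siRNA 3.

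None of the 4 tested collagens of basement membranes passed the threshold, and their median log2 fold change was -0.38. COL4A5, an X-linked type IV chain whose loss causes Alport syndrome, had 21.5, 34.3 and 31.8 CPM after FTO siRNA, against 39.98, 43.1 and 46.7 CPM after control siRNA. The groups did not overlap, which held for 17.4% of all genes tested in this direction. The means were 29.2 ± 6.80 CPM after FTO siRNA and 43.3 ± 3.35 CPM after control siRNA (SD, n = 3 each), with log2 -0.57 ± 0.19 and an edgeR adjusted p of 0.0989. Without FTO siRNA 3 it was called lower, at log2 -0.66 and adjusted p = 0.0297.

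COL18A1, the source of the endostatin fragment and a collagen that hepatocytes are known to make, had 85.96, 103.5 and 93.5 CPM after FTO siRNA, against 102.6, 105.95 and 114.3 CPM after control siRNA. FTO siRNA 2 lay above control siRNA 1, and the difference did not pass the threshold (log2 -0.19 ± 0.14, edgeR adjusted p = 0.402). COL4A6, the neighbour of COL4A5 in the genome, had 4.14 to 8.83 CPM after FTO siRNA, against 5.30 to 12.3 CPM after control siRNA (edgeR adjusted p = 0.654).

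COL4A1 and COL4A2 encode the chains of the common type IV collagen and are transcribed in opposite directions from a shared stretch. It is shown because both genes share it, with the CCAAT box core in capitals, from RefSeq (GRCh38.p14, chr13:110307158-110307283, plus strand).
COL4A1-COL4A2: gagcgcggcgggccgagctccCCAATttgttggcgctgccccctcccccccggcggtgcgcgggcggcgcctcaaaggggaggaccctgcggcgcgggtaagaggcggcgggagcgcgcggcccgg
COL4A1 had 27, 19 and 24 counts after FTO siRNA, against 24, 40 and 27 counts after control siRNA (log2 -0.46 ± 0.32, edgeR adjusted p = 0.382). COL4A2 had 6, 5 and 6 counts after FTO siRNA, against 0, 0 and 2 counts after control siRNA, and did not pass the filter. COL4A2 lay near the floor of 3 counts, and the difference between the chains was not tested.

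In the other classes, 4 of 9 tested members were called higher, beside 7.53% of all genes tested. Of these, COL6A2 and COL17A1 passed the filter only through the FTO siRNA libraries, so their fold changes and p-values are given as a description. Upstream stretches from RefSeq (GRCh38.p14) are shown for the 3 called genes in which a match to GGGCGG was found before the start site. Each gives the 250 bases before the annotated start on the gene's own strand, with the GC box core GGGCGG and the TATA box TATAAA in capitals, on either strand. COL7A1 is at chr3:48595330-48595579 on the minus strand, COL9A2 at chr1:40317287-40317536 on the minus strand and COL6A2 at chr21:46097862-46098111 on the plus strand.
COL7A1: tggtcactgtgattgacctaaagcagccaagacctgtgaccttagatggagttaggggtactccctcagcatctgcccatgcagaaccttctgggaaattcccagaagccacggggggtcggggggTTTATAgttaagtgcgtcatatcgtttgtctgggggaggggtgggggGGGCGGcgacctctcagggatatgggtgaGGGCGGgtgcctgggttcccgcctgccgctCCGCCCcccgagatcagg
COL9A2: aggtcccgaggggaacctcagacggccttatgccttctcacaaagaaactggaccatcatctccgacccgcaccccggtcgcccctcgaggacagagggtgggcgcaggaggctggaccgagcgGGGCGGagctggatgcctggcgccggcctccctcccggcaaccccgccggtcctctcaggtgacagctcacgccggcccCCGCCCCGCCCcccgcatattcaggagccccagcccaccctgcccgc
COL6A2: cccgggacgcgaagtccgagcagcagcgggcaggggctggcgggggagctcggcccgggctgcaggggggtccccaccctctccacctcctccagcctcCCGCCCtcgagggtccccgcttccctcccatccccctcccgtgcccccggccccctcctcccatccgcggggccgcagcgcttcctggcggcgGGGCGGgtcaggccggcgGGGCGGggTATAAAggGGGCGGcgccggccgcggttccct
In COL7A1 the TATAAA match lies on the opposite strand, as TTTATA, near the middle of the stretch and well away from the start. In COL9A2, 1 pair of GC box cores overlaps. Motifs were searched in the 250 bases before the start only. Over 27305 promoter windows, 42.2% held GGGCGG there, 11.2% TATAAA, 33.0% CCAAT and 37.9% CAGAC, a core bound by SMAD proteins. Windows were matched for 32 of the 44 collagens, of which 17 held GGGCGG, 5 TATAAA, 8 CCAAT and 12 CAGAC. Of the 5 called collagens with a window, 3 held GGGCGG, 3 TATAAA, 1 CCAAT and 2 CAGAC. COL11A2 and COL17A1, not shown, held no GGGCGG, and COL11A2 held none of these motifs. COL1A1 and COL1A2 had no window. A match is a description of letters and no evidence of a site.

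COL7A1, which forms the anchoring fibrils that hold skin epithelium to its matrix, had 90.4, 62.1 and 72.7 CPM after FTO siRNA, against 14.1, 13.3 and 19.7 CPM after control siRNA. The lowest FTO siRNA library was far above the highest control siRNA library. The means were 75.1 ± 14.3 CPM after FTO siRNA and 15.7 ± 3.47 CPM after control siRNA (SD, n = 3 each), 4.78-fold apart (log2 2.26 ± 0.21, edgeR adjusted p = 0.00156). It was called under all 15 other settings run, with log2 fold changes of 2.09 to 2.43 and adjusted p-values up to 0.0168.

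COL9A2, a chain of collagen IX that coats cartilage fibrils, had 33.2, 24.1 and 53.2 CPM after FTO siRNA, against 15.2, 13.3 and 14.9 CPM after control siRNA. The groups did not overlap, and the FTO siRNA libraries were spread widely while those after control siRNA were close together. The means were 36.8 ± 14.9 CPM after FTO siRNA and 14.5 ± 1.04 CPM after control siRNA (SD, n = 3 each), 2.55-fold apart (log2 1.35 ± 0.28, edgeR adjusted p = 0.0189). The log2 fold change was 0.96 without FTO siRNA 3. Its call was lost without control siRNA 1 (edgeR adjusted p = 0.0877), 2 (0.0913) or 3 (0.0692). Its partner chain COL9A3 had 15, 26 and 113 counts after FTO siRNA, against 6, 3 and 11 counts after control siRNA (log2 2.77 ± 0.80, edgeR adjusted p = 0.0589). Without FTO siRNA 3 that log2 fold change was 1.59, with an adjusted p of 0.0408. COL9A3 passed the filter only through the FTO siRNA libraries, so its fold changes and p-values are given as a description.

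Collagen VI forms beaded filaments around cells from 3 different chains. COL6A1 had 49.8, 47.1 and 83.2 CPM after FTO siRNA, against 35.2, 36.4 and 30.3 CPM after control siRNA. The groups did not overlap, as for 19.2% of all genes tested in this direction. The means were 60.05 ± 20.1 CPM after FTO siRNA and 33.97 ± 3.22 CPM after control siRNA (SD, n = 3 each), 1.77-fold apart (log2 0.82 ± 0.23, edgeR adjusted p = 0.0543). Without FTO siRNA 3 the log2 fold change was 0.49, with an adjusted p of 0.0173. COL6A2, which lies next to COL6A1, had 0.868, 1.54 and 5.47 CPM after FTO siRNA, against 0.253, 0.244 and 0.121 CPM after control siRNA, or 14, 25 and 107 counts after FTO siRNA, against 4, 4 and 2 counts after control siRNA. FTO siRNA 3 held most of the reads. The fitted difference was 12.7-fold (log2 3.67 ± 0.86, edgeR adjusted p = 0.0299), and log2 2.49 without FTO siRNA 3 (adjusted p = 0.00771). The COL6A2 call was lost without control siRNA 1 (edgeR adjusted p = 0.114), 2 (0.107) or 3 (0.106). COL6A3 had 1, 10 and 5 counts after FTO siRNA and none in any control siRNA library.

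COL17A1, a transmembrane collagen of hemidesmosomes, had 1.36, 1.48 and 0.818 CPM after FTO siRNA, against 0, 0.183 and 0.242 CPM after control siRNA. These are 22, 24 and 16 counts after FTO siRNA, against 0, 3 and 4 counts after control siRNA, so the level was low in every library although the groups did not overlap. The fitted difference was 8.04-fold (log2 3.01 ± 0.62, edgeR adjusted p = 0.0181). The COL17A1 call held without FTO siRNA 3 alone, with edgeR adjusted p-values up to 0.0845 without each of the other 5 libraries.

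COL12A1, which decorates fibrils in dense tissue, had 62.8, 103.8 and 138.9 CPM after FTO siRNA, against 62.2, 70.8 and 97.0 CPM after control siRNA. The groups overlapped (log2 0.41 ± 0.29, edgeR adjusted p = 0.390). COL28A1 had 5.37 to 11.4 CPM after FTO siRNA, against 3.92 to 4.94 CPM after control siRNA, without overlap (log2 0.74 ± 0.33, edgeR adjusted p = 0.184). COL14A1 had 0.494 to 4.85 CPM after FTO siRNA, against 1.39 to 3.41 CPM after control siRNA (edgeR adjusted p = 0.999). FTO siRNA 3 was the one library that set the top of that range, and without it COL14A1 was called lower, at log2 -1.54 and adjusted p = 0.0427. With all libraries COL14A1 passed the filter only through the control siRNA libraries, so this call is given as a description.

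**Figure D3:**
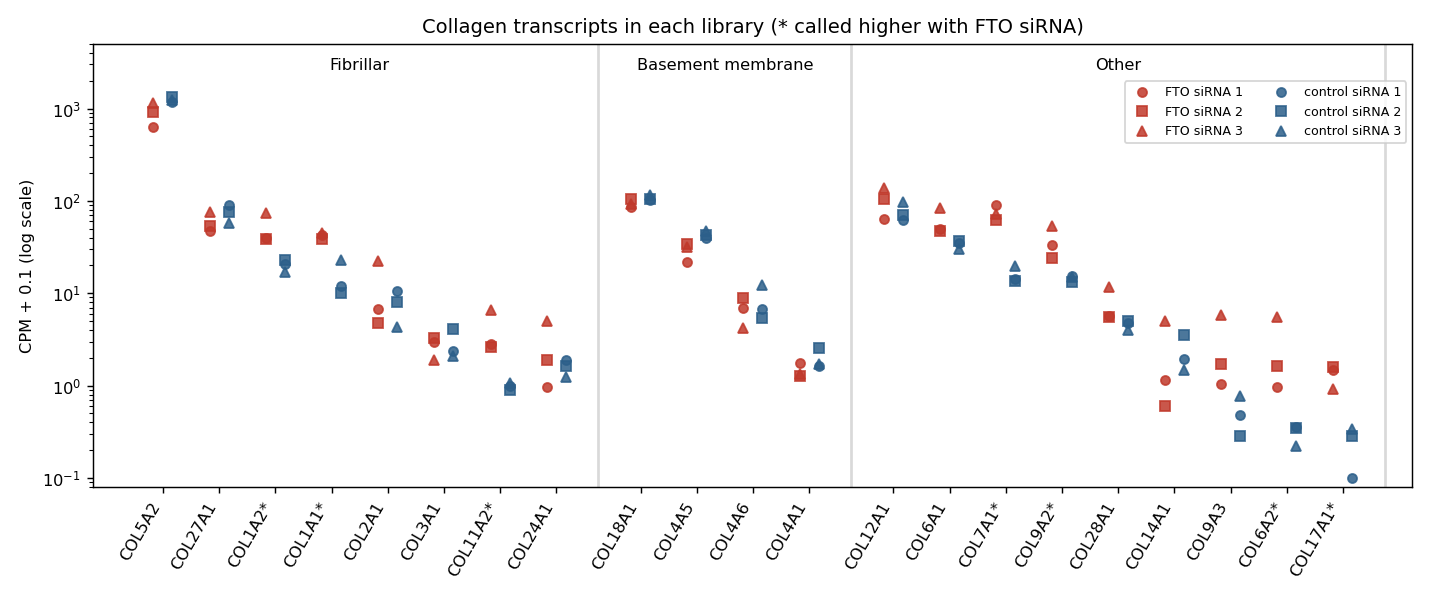
TMM-scaled CPM plus 0.1, on a log scale, of the 21 tested collagens by class, with a point for each library, FTO siRNA left of control siRNA, and an asterisk for members called higher. COL7A1 lies at 62.1 to 90.4 CPM after FTO siRNA and 13.3 to 19.7 CPM after control siRNA, while COL18A1 and COL12A1 overlap between groups.

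The 23 members that did not pass the filter had at most 35 counts in any library. Summed over 3 libraries each, 20 had more counts after FTO siRNA and 3 had fewer. COL4A3 had 20 counts after FTO siRNA and 27 after control siRNA, COL5A1 had 21 after FTO siRNA and 36 after control siRNA, and COL19A1 had 13 after FTO siRNA and 18 after control siRNA. The best covered were COL11A1 with 54 counts after FTO siRNA against 20 after control siRNA, and COL8A2 with 48 after FTO siRNA against 17 after control siRNA. COL16A1 had 18 counts after FTO siRNA and 2 after control siRNA, and COL5A3 had 14 after FTO siRNA and 3 after control siRNA. For 8 members no control siRNA library held a count, COL6A3 with 16 counts after FTO siRNA being the highest of them. At least 1 count was seen for 40, 39 and 42 of the 44 members in FTO siRNA 1 to 3, against 32, 33 and 33 in control siRNA 1 to 3. These counts were not scaled for depth, and no share over all genes with few counts stands beside them. Without a filter, the median log2 fold change over 33571 genes was 0.18, against 0.04 over the genes tested. Over the collagens it was 1.27 without a filter, against 0.74. No median over genes with few counts alone stands beside these. The direction is not read as particular to collagens, and whether it is was not tested.

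The genes that build, export, cross-link and sense collagen were read as 88 genes in 7 lists, of which 67 were tested, 15 called higher and 1 lower, with a median log2 fold change of 0.22. Over all genes tested, 7.53% were called higher and 3.83% lower, with a median of 0.04, and the counts of each list stand beside these shares. The lists were chosen with earlier results of these data known, so their counts and median are descriptions and no more. Of 18 tested genes for folding and modification in the endoplasmic reticulum, 4 were higher and none lower. P3H3, of the prolyl hydroxylase family, had 5.33, 5.81 and 9.04 CPM after FTO siRNA, against 1.46, 1.40 and 1.27 CPM after control siRNA (log2 2.29 ± 0.30, edgeR adjusted p = 0.00409). FKBP10, a collagen chaperone, had 119.7, 130.3 and 177.8 CPM after FTO siRNA, against 73.5, 53.9 and 61.5 CPM after control siRNA (log2 1.18 ± 0.20, edgeR adjusted p = 0.00932). Neither overlapped between groups. P3H4 followed at log2 0.81 ± 0.20 (edgeR adjusted p = 0.0382) and SERPINH1, the collagen-specific chaperone, at log2 0.71 ± 0.19 (0.0421). The P3H4 and SERPINH1 calls were lost in 5 of the 6 leave-outs, holding without FTO siRNA 3, and in 5 (P3H4) and 3 (SERPINH1) of the 9 settings that kept all libraries, and that of FKBP10 without control siRNA 2 (0.0584).

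Of 9 tested export genes, 1 was called lower: SAR1B, the GTPase that starts the coat of export vesicles, at log2 -0.52 ± 0.14 (edgeR adjusted p = 0.0427), lost in 5 of the 6 leave-outs, all but FTO siRNA 3. Of 10 tested cleavage and cross-linking genes, 3 were higher and none lower. LOXL2, a lysyl oxidase that cross-links collagen, had 127.3, 122.8 and 83.2 CPM after FTO siRNA, against 16.8, 19.6 and 47.8 CPM after control siRNA (log2 1.98 ± 0.39, edgeR adjusted p = 0.0157). Control siRNA 3 was the highest of its group, and FTO siRNA 3 the lowest of its own. The others were the transglutaminase TGM2 at log2 0.82 ± 0.19 (edgeR adjusted p = 0.0274) and BMP1, which cuts the procollagen C-terminus, at 0.75 ± 0.20 (0.0431). The LOXL2 call was lost without control siRNA 1 or 2 (up to 0.0765), that of TGM2 without FTO siRNA 2 or any control siRNA library (up to 0.112), and that of BMP1 in all leave-outs but FTO siRNA 3 (up to 0.1996).

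Of 5 tested collagen receptors, 2 were higher. DDR1, the receptor kinase for collagen on epithelial cells, had 41.8, 42.7 and 63.5 CPM after FTO siRNA, against 14.9, 20.7 and 15.3 CPM after control siRNA (log2 1.54 ± 0.22, edgeR adjusted p = 0.00571). The integrin chain ITGA2 followed at log2 0.94 ± 0.23 (edgeR adjusted p = 0.0338), a call lost without FTO siRNA 2 or any control siRNA library (up to 0.148). Of 8 tested binding partners, SPARC, a collagen-binding matricellular protein, was the only one called: 46.5, 47.1 and 32.5 CPM after FTO siRNA, against 10.8, 14.4 and 12.1 CPM after control siRNA (log2 1.75 ± 0.20, edgeR adjusted p = 0.00287). The uncalled partners went both ways: HSPG2 (log2 -0.86) and NID1 (-0.61) lay below 0, and LUM, FN1, TGFBI, NID2 and AGRN above 0. None of 3 tested proteases passed the threshold. Their lowest p-values were those of MMP14, a collagenase at the cell surface (log2 0.54 ± 0.15, edgeR adjusted p = 0.0577), and PEPD, which splits proline dipeptides (edgeR adjusted p = 0.696).

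Of 14 tested TGF-beta genes and collagen transcription factors, 5 were higher and none lower. CREB3L1, a transcription factor released from the endoplasmic reticulum that drives collagen genes in bone, had 44.7, 36.1 and 30.4 CPM after FTO siRNA, against 3.99, 5.97 and 8.57 CPM after control siRNA (log2 2.58 ± 0.29, edgeR adjusted p = 0.00246). The ligand TGFB2 had 110, 154 and 169 CPM after FTO siRNA, against 24.5, 37.5 and 65.9 CPM after control siRNA (log2 1.76 ± 0.34, edgeR adjusted p = 0.0153). Neither gene overlapped between groups. The ligand TGFB1 was higher at log2 0.97 ± 0.17 (edgeR adjusted p = 0.0107), the signal carrier SMAD3 at 0.90 ± 0.18 (0.0181) and SMAD7, an inhibitor of the pathway, at 0.58 ± 0.14 (0.0342). P3H3, DDR1, SPARC and CREB3L1 kept their calls in all 6 leave-outs. The calls of TGFB1 and TGFB2 were lost without control siRNA 1 or 2 (up to 0.0710 and 0.0798), that of SMAD3 also without FTO siRNA 2 (up to 0.117), and that of SMAD7 in all but FTO siRNA 3.

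**Figure D4:**
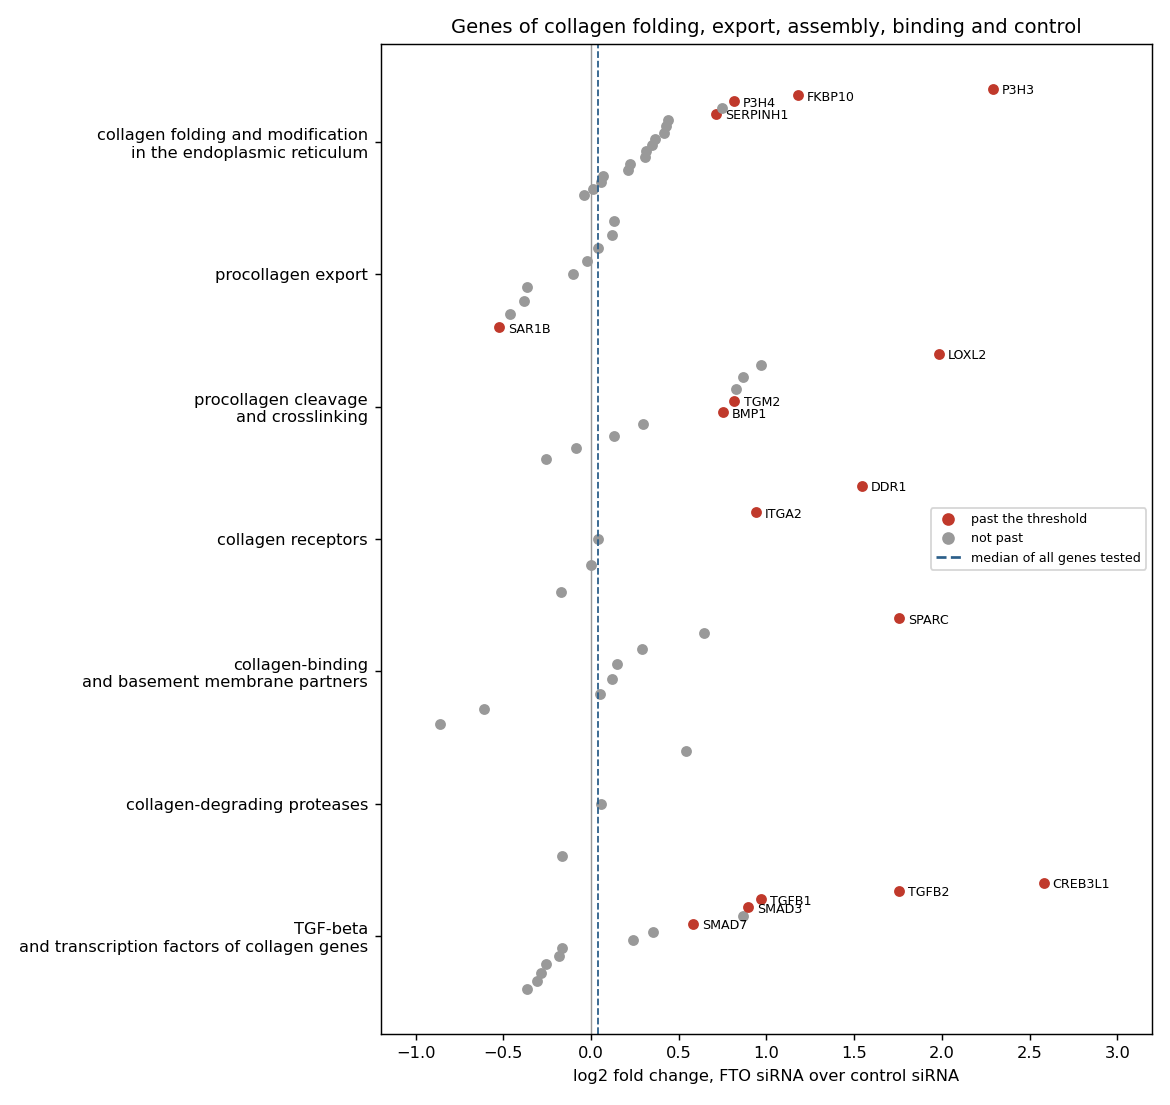
Log2 fold change of the 67 tested companion genes in 7 lists, FTO siRNA over control siRNA, a point for each gene, with those past the threshold in red and the median of all genes tested as a dashed line. CREB3L1 at 2.58, P3H3 at 2.29 and LOXL2 at 1.98 stand out, and the 1 gene called lower is SAR1B.

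HepG2 identity was checked against hepatocyte markers, which were all tested with none called. They summed to 15687 to 27744 CPM after FTO siRNA, against 22906 to 32837 CPM after control siRNA. Each had a log2 fold change below 0, from -0.0046 for TF to -1.40 for APOB (edgeR adjusted p = 0.0650). APOB had 1405, 2381 and 4062 CPM after FTO siRNA, against 8180, 7419 and 5071 CPM after control siRNA. Neither APOB nor HNF4A (log2 -0.23, edgeR adjusted p = 0.306) overlapped between groups, as for 17.4% of all genes tested in this direction. Markers of other cells were higher after FTO siRNA in part. Over all genes tested 7.53% were called higher, and the counts of each marker list, mostly of few genes, stand beside this share. Of 12 immune markers, 8 were tested and 4 were higher (PTPRC, CD3D, NKG7 and CD74). Of these 4, PTPRC, CD3D and NKG7 passed the filter only through the FTO siRNA libraries, which favours higher values there. The immune list had sums of 180 to 211 CPM after FTO siRNA, against 128 to 190 CPM after control siRNA. Constant segments of antibody and T-cell receptor genes, 20 in all, held 299, 346 and 336 counts after FTO siRNA, against 0, 0 and 2 after control siRNA. Fibroblast markers other than collagens, 10 in all, summed to 629 to 1528 CPM after FTO siRNA, against 353 to 678 CPM after control siRNA, with 1 of 5 tested higher (TAGLN). Of the 10, THY1, DCN, FAP, PDPN and ACTA2 were at 0 in every control siRNA library and reached at most 14 counts in any FTO siRNA library. Others of the list were present in both groups: VIM at 472 to 998 CPM after FTO siRNA and 271 to 517 CPM after control siRNA, LUM at 35.5 to 49.4 CPM after FTO siRNA and 29.7 to 55.97 CPM after control siRNA, and PDGFRA at 13.4 to 28.6 CPM after FTO siRNA and 10.1 to 16.9 CPM after control siRNA. Among stellate cell markers, 0 of 3 tested were called, and the sums overlapped at 78.9 to 236 CPM after FTO siRNA and 133 to 176 CPM after control siRNA. Called higher were also 2 of 4 tested smooth muscle markers (ACTG2 and CNN1, sums of 192 to 272 CPM after FTO siRNA and 126 to 182 CPM after control siRNA), 1 of 4 chondrocyte markers (COMP, sums of 223 to 348 CPM after FTO siRNA and 276 to 358 CPM after control siRNA), 1 of 2 endothelial markers (EGFL7, sums of 65.4 to 104 CPM after FTO siRNA and 53.6 to 68.7 CPM after control siRNA) and 1 of 2 of keratinocytes and cervical lines (KRT17, sums of 5.50 to 8.38 CPM after FTO siRNA and 3.08 to 3.93 CPM after control siRNA). ACTG2, COMP and KRT17 passed the filter only through the FTO siRNA libraries, which favours higher values there. CD74, CNN1, EGFL7 and TAGLN passed it in both groups. The other tested markers of smooth muscle, chondrocytes, endothelium and keratinocytes were not called and went both ways. MYH11 (log2 -0.84), PECAM1 (-0.47), MATN3 (-0.30) and CHAD (-0.21) lay below 0, and SMTN (0.28), SOX9 (0.26) and TP63 (0.44) above 0. The part of these other cell markers in the collagen differences was not tested.

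The called collagens had a median GC content of 63.3% (41.7% to 66.4%), against 53.4% (45.1% to 67.4%) for the tested members that did not pass. Across the 21 tested collagens, Spearman's rho of the log2 fold change with GC content was 0.42, against 0.23 across 14936 genes, and with transcript length -0.46 against -0.21. These are correlations across genes, which share the same 6 libraries and are not independent replicates. With length and GC trends removed, the number of collagens called higher was 7, beside 7.23% of all genes tested. Shared 50-base words with genes that do not overlap them were absent from all members but COL8A1, at 0.177% of its words. Overlaps in the annotation include COL9A3 with TCFL5, COL18A1 with SLC19A1, COL1A2 with AC002074.1, COL5A2 with AC133106.1 and COL4A1 with COL4A2. The labels do not state whether the counting used strand, so reads of these pairs cannot be told apart.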

How the data were processed

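RNA sequencing of 6 HepG2 libraries was analysed, 3 after FTO siRNA and 3 after control siRNA, grouped by the transfection label. The authors deposited raw counts per Ensembl gene, 1 file per library. Per the submitters' processing notes, tools included TopHat2 2.0.11, TopHat and HTSeq and builds included GRCh37 and hg19, with no role given. The labels state neither the counting settings nor the use of strand.

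From these counts, identifiers were matched to GENCODE 29 (56753 of 60483), which gave symbols, transcript length and GC content. edgeR 4.0.16 in R 4.3.3 was run over all 15025 genes that passed filterByExpr by group (10 counts in the median library, or 0.602 CPM, in 3 libraries). TMM scaling, glmQLFit and glmQLFTest were used, two-sided, on the group, with Benjamini-Hochberg adjustment over all genes tested and a threshold of 0.05. CPM per kilobase divides by the longest transcript. The script was tested on simulated data. Total counts of 15713279 to 18390953 per library set the precision. Every pair of libraries differed by more than sampling noise (chi-square over degrees of freedom 8.45 or more).

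Named were FTO, each collagen called or with a mean of at least 10 CPM, and up to 5 called members of each companion list, or the 2 with the smallest p-values where none passed. COL3A1, COL4A1, COL4A6, COL9A3, COL14A1, COL24A1 and COL28A1 are given by their range or counts. The uncalled binding partners are given by direction. The members, lists and searched motifs were chosen with earlier results of these data known. The alternatives were RLE factors, no composition factors, no filter, 1 CPM in 3 libraries, DESeq2 1.42.0, limma-voom 3.58.1, length and GC trends removed, a replicate block, and each library left out. Upstream sequences are from RefSeq.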

Additional observations from a re-analysis of the deposited data

How the results depend on the processing

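Under the 9 settings that kept all libraries, 5 to 9 collagens were called higher and 0 lower, and 3 fibrillar members stayed called higher in number. With at least 1 CPM in at least 3 libraries, 2 members of the other classes were called higher, since COL6A2 and COL17A1 gave no value there. The genes called lower numbered 1027 with DESeq2, against 575. Companion genes called higher numbered 10 to 18 under these 9 settings, against 15. Of those named, P3H4 lost its call in 5 of the 9, SAR1B and BMP1 in 4, SERPINH1 and SMAD7 in 3, TGM2 in 2 and ITGA2 in 1. Companion genes called lower numbered 2 with DESeq2, and 0 with no filter, with the replicate block, with length and GC trends removed, and with both together, against 1. Without a filter the median over 33571 genes was 0.18, against 0.04, and that over collagens 1.27, against 0.74. No sign of pairing by replicate number was seen: same-numbered libraries deviated with correlations of -0.153, -0.0716 and -0.268, and 0 of 6 correlated best with its own number. With 3 libraries per group and FTO siRNA 3 apart from its group, this check could not exclude a pairing. With the replicate block, 8 collagens were higher and 0 lower, and 736 genes were higher and 305 lower over all genes. With the replicate block and length and GC trends removed, these were 674 and 274. Leaving out 1 library at a time gave 1 to 9 collagens higher (7 with all) and 0 to 4 lower (0), 0 to 3 fibrillar members higher (3), 1 to 6 of the other classes (4), 236 to 2430 genes higher (1132), 94 to 2152 lower (575), 4 to 20 companion genes higher (15) and 0 to 9 lower (1). The medians then ran from 0.10 to 0.94 for collagens, -0.18 to 1.01 for fibrillar members, -0.61 to -0.31 for basement membranes and 0.96 to 1.59 for the other classes. The cause of these changes was not tested. Of single-collagen values, 265 kept direction and side of the threshold, 13 passed it newly, 22 no longer did and 12 changed sign without passing it in either fit. Those 12 belong to COL2A1, COL3A1, COL4A6, COL14A1 and COL24A1. The log2 fold change of COL14A1 was 0.038 with no composition factors, 0.0075 with at least 1 CPM in at least 3 libraries and 0.14 with length and GC trends removed. That of COL3A1 was 0.020 with the replicate block and length and GC trends removed. Leaving out 1 library at a time, log2 fold changes ran from -0.44 to 0.94 for COL2A1, -0.30 to 0.27 for COL3A1, -0.59 to 0.12 for COL4A6, -1.54 to 0.44 for COL14A1, -0.18 to 1.17 for COL24A1 and -0.35 to 0.058 for PEPD. COL9A3 was also called with DESeq2 (adjusted p = 0.00313), with no filter (edgeR 0.0350), with the replicate block (0.0219) and with the replicate block and length and GC trends removed (0.0420). As it passed the main filter only through the FTO siRNA libraries, these calls are a description. COL6A1 was called with DESeq2 (0.0176), and COL6A2 was lost with limma-voom (0.0560). With the replicate block and length and GC trends removed, COL12A1 was called higher (edgeR adjusted p = 0.0434) and COL9A2 (0.0568) and COL17A1 (0.0517) were lost. Ratios of chains with under 10 counts in a library were not computed. Depth limits the 23 untested members, which had at most 35 counts in any library.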
